A study of Homo sapiens with 6 samples.

Results

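Interferon-stimulated genes are the genes that cells switch on after interferon, and 43 of them were followed here in MV4-11, a human AML cell line that carries *FLT3*-ITD. The 43 members were taken from a list of symbols drawn up with earlier results of these data known, and each matched 1 of the 61806 Ensembl genes of the count table. RNA sequencing covered 6 MV4-11 libraries. In 3 of them (shNC 1 to 3) the cells carried a control shRNA. The other 3 bear the label shATGL (shATGL 1 to 3), for an shRNA directed at *ATGL*, the triglyceride lipase that *PNPLA2* encodes. Cells were transduced with lentiviral vectors and selected with puromycin, so both groups share the vector and the selection. The labels do not say which of the shRNA sequences against *ATGL* a library carries. Nothing states that the replicates were separate cultures, so p-values measure only the spread between these libraries, which may be technical.

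Type I interferons bind the receptor *IFNAR1*/*IFNAR2*, the kinases *JAK1* and *TYK2* then phosphorylate STAT proteins, and *STAT2* with *IRF9* forms part of the factor ISGF3. ISGF3 binds the interferon-stimulated response element (ISRE) in promoters, and the induced proteins sense viral RNA, degrade it, block its translation or hinder entry and release of virus. Leukaemia cells are known to switch on the same genes when double-stranded RNA or DNA of their own reaches the cytosolic sensors.

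*PNPLA2* was measured first as a check of the labels, and its level was 101, 97.0 and 107 CPM (counts scaled to the effective library size) in shNC 1 to 3 and 102, 98.1 and 104 CPM in shATGL 1 to 3. The groups overlapped, and the log2 fold change was -0.01 (SE 0.06, adjusted p = 0.979 in edgeR's quasi-likelihood test). The transcript was therefore not measurably lower in the libraries labelled shATGL, and every direction below is between libraries by their label. Total counts ran from 59674064 to 74808280 per library. All 13 myeloid markers that were looked for (among them *FLT3*, *CD33*, *SPI1* and *LYZ*) passed the filter on low counts. *CD14* among them had only 18, 17 and 9 counts in shNC and 13, 16 and 0 in shATGL. The 2 erythroid markers, *HBB* among them, had 0 counts in every library, and 0 of 3 T cell markers passed the filter. Of 3 markers each, 2 for B cells, 1 epithelial and 1 endothelial marker passed. The 3 endothelial markers, of which 1 passed and 1 had 0 counts in every library, summed to 265 to 269 CPM in shNC. That sum is thus not a level shared by the 3. In shATGL 1 and 2, genes of low GC content stood high and in shNC 3 and shATGL 3 they stood low: over all tested genes, Spearman's rho of a gene's deviation in a library with its GC content was -0.279 in shATGL 1, -0.308 in shATGL 2, 0.305 in shNC 3 and 0.386 in shATGL 3, against 0.0023 in shNC 1 and -0.0802 in shNC 2.

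The ISRE is the sequence through which ISGF3 acts, so the promoters of the members are shown before their levels. RefSeq promoters on GRCh38.p14 (250 bases before to 50 bases after a start, with more than 1 start for some genes) were at hand for 35 of the 43 members; *IFIT2*, *IFITM2*, *IRF7*, *MX2*, *OAS2*, *OASL*, *TRIM22* and *USP18* had no entry. They were searched for the core GAAANNGAA and its reverse complement TTCNNTTTC, 2 spellings of the same element that can overlap one another in a promoter. At least 1 match was found in 24 of the 35 members (68.6%) and in 9.86% of all 27305 genes of the table. Counted by promoter, 29 of 48 (60.4%) against 8.11% of 35116 held the core. The windows below, 29 bases in the direction of transcription with the matched core in capitals, are from members whose levels are described further on.
SAMD9: tctgagaaatGAAACTGAAaccaaaccta
DDX60: gtgctgaaggGAAACTGAAacctaagtgc
IFIH1: gaagagaatcGAAACAGAAaccaaagtca
IFIT3: ttccatcagtTTCACTTTCctttcccctt
ISG15: tcgggaaaggGAAACCGAAactgaagcca
BST2: tcctttctggGAAACTGAAactgaaaacc
EPSTI1: ctgattctgaGAAACCGAAactcagctgt
They lie at chr7:93118097-93118125 (*SAMD9*, minus strand), chr4:168318822-168318850 (*DDX60*, minus strand), chr2:162318687-162318715 (*IFIH1*, minus strand), chr10:89332469-89332497 (*IFIT3*, plus strand), chr1:1013380-1013408 (*ISG15*, plus strand), chr19:17405742-17405770 (*BST2*, minus strand) and chr13:42992273-42992301 (*EPSTI1*, minus strand). *SAMD9*, *DDX60*, *ISG15*, *BST2* and *IFIT3* each carried the core, although the values below place the first 2 and *IFIT3* above and *ISG15* and *BST2* below the shNC mean. The core was not in the window of *SAMD9L*, *XAF1*, *STAT2* or *RIGI*. The 22 tested members with the core had a median log2 fold change of 0.02 and the 11 without it a median of 0.13, with ranges of -0.56 to 1.08 and -0.11 to 1.14 that overlapped over most of their length.

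Most of the module was expressed. Of the 43 members, 41 (95.3%) passed the filter on low counts, compared with 31.0% of all rows, and 34 had at least 1 CPM in every library. Only 15 reached 10 CPM in every library, and *ADAR* alone reached 100 CPM. *ISG20*, an exonuclease, had counts of 8, 0 and 18 in shNC and 0, 8 and 12 in shATGL and did not pass the filter. *IFI44L*, which interferon induces strongly in many cells, had 0 counts in all 3 shNC libraries and 0, 12 and 12 in shATGL 1 to 3, and did not pass either. Because the libraries are bulk RNA, fewer cells with a transcript and less of it per cell cannot be told apart for any gene here.

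**Figure D1:**
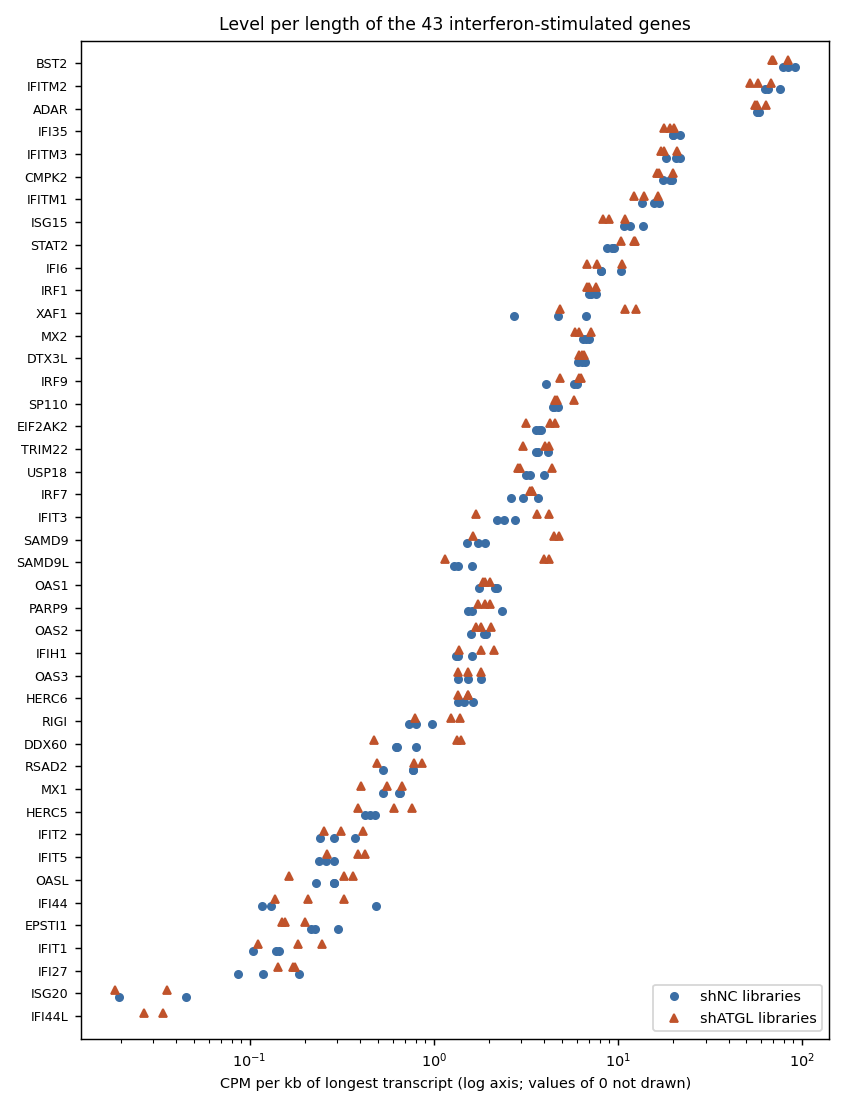
Level of the 43 genes per kb of their longest annotated transcript, on a log axis, with 1 point for each shNC library (circles) and each shATGL library (triangles), and values of 0 left out. BST2, IFITM2 and ADAR stand highest, and IFI44L and ISG20 lowest.

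Per kb of the longest GENCODE 29 transcript, the highest levels were those of 2 membrane proteins and an RNA editor. *BST2* (tetherin, which holds budding virus at the cell surface) stood at 85.3 ± 6.48 CPM per kb in shNC and 74.2 ± 8.63 in shATGL (mean ± SD, n = 3 each). *IFITM2*, a membrane protein that hinders fusion of entering virus, stood at 68.5 ± 7.07 and 59.4 ± 7.67 CPM per kb, and its range of mean ± SD was under that of *BST2* in shNC and overlapped it in shATGL. *ADAR*, which edits adenosine in double-stranded RNA, stood at 57.7 ± 0.889 and 58.9 ± 4.42 CPM per kb. *IFI35* (20.6 ± 1.02 and 19.1 ± 1.11) and *IFITM3* (20.2 ± 1.70 and 18.6 ± 2.02 CPM per kb) followed and did not differ from each other beyond their spread. Members that interferon induces strongly in many cells were spread over the order in shNC, with *ISG15* at 12.1 ± 1.47, *MX1* at 0.608 ± 0.0693, *IFI27* at 0.131 ± 0.0507 and *IFIT1* at 0.129 ± 0.0211 CPM per kb.

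With all 6 libraries, no member was called. In edgeR's quasi-likelihood test, 0 of the 41 tested members combined a change of 2-fold or more with an adjusted p under 0.05, a rule met by 1 of all 19149 tested genes (0.00522%). The smallest adjusted p of a member was 0.392. At an unadjusted p under 0.05, 4 members were higher in shATGL (*SAMD9*, *SAMD9L*, *XAF1* and *STAT2*, 9.76% of the tested members against 5.77% of all tested genes) and 1 was lower (*ISG15*, 2.44% against 5.94%). DESeq2 also called 0 members, and limma voom called 3. Of the 41, 23 had a higher and 18 a lower fitted level in shATGL (56.1% higher, against 51.9% of all tested genes), and the median log2 fold change was 0.04, against 0.01 over all genes. Groups did not overlap for 1 member that was higher in shATGL (*STAT2*, 2.44% against 7.93% of all tested genes) and for 1 that was lower (*EPSTI1*, 2.44% against 9.38%).

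**Figure D2:**
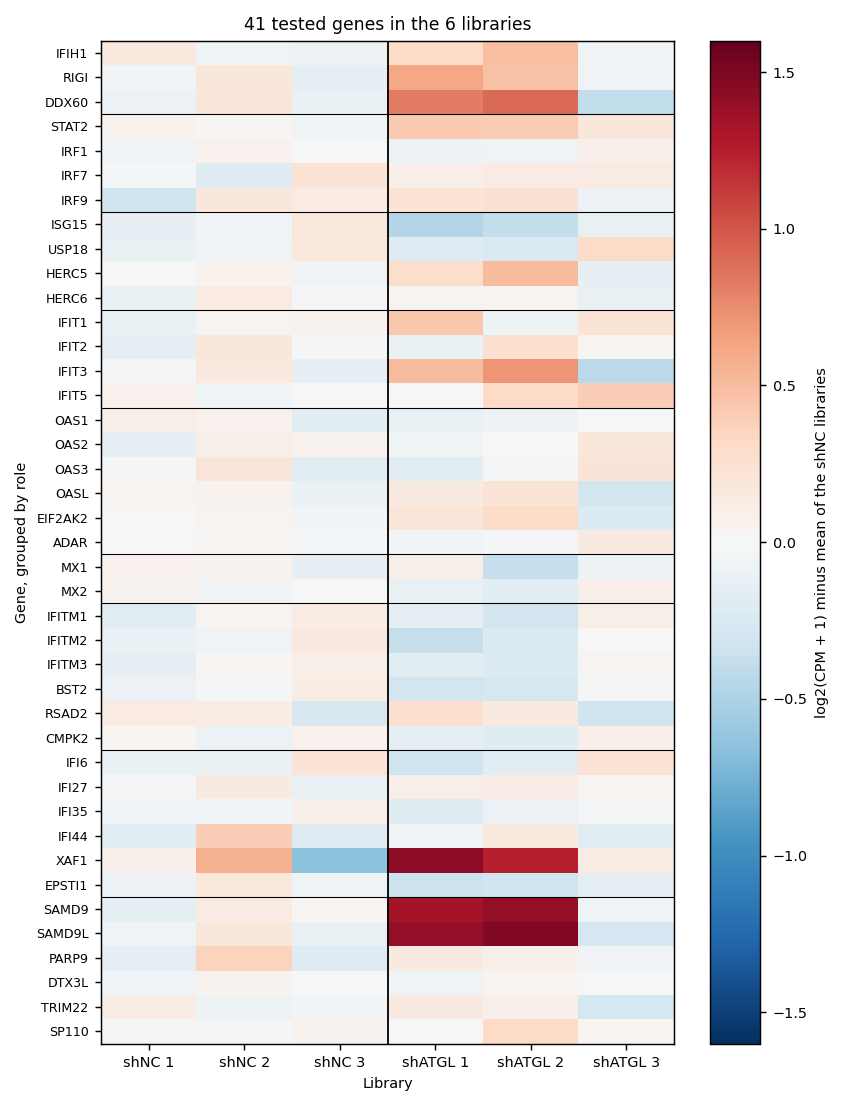
Heat map of the 41 tested genes (rows, grouped by role with lines between groups) in the 6 libraries (columns), coloured by log2(CPM + 1) minus the mean of the 3 shNC libraries. SAMD9, SAMD9L, XAF1, DDX60, RIGI and IFIT3 are red in shATGL 1 and 2 and pale or blue in shATGL 3, while ISG15, the IFITM genes and BST2 are blue in shATGL 1 and 2.

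The members with the largest differences were 2 adjacent paralogs and a pro-apoptotic gene, and in each the difference lay in 2 of the 3 libraries labelled shATGL. *SAMD9* (ENSG00000205413, chr7:93099513-93118023, minus strand, GRCh38, GENCODE 29), a growth-restraining and antiviral protein whose locus at 7q is known for germline mutations in bone marrow failure, measured 10.4, 13.02 and 12.002 CPM in shNC 1 to 3 and 31.1, 32.7 and 11.2 CPM in shATGL 1 to 3. Its log2 fold change was 1.08 (SE 0.36, adjusted p = 0.392; exact two-sided permutation p = 0.3, where 20 relabellings allow no p under 0.1). *SAMD9L* (ENSG00000177409, chr7:93130055-93148369, minus strand), its neighbour, measured 9.68, 11.5 and 9.17 CPM in shNC and 28.5, 30.1 and 8.19 CPM in shATGL, for a log2 fold change of 1.14 (SE 0.43, adjusted p = 0.399; exact permutation p = 0.4). shATGL 3 lay inside the shNC range for *SAMD9* and under it for *SAMD9L*, so the groups overlapped for both. The spans of the 2 genes are 12032 bases apart. Reads that fit both paralogs could have been split between them by the counting.

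*XAF1* (ENSG00000132530, chr17:6755447-6775647, plus strand), which antagonizes the caspase inhibitor XIAP, measured 17.2, 24.4 and 9.93 CPM in shNC and 45.5, 39.7 and 17.7 CPM in shATGL. The highest shNC library exceeded the lowest shATGL library, and the log2 fold change was 0.998 (SE 0.41, adjusted p = 0.414; exact permutation p = 0.2). Its shNC libraries were further apart than those of *SAMD9* or *SAMD9L*, with a mean of 17.2 ± 7.24 CPM (SD, n = 3). An annotated transcript on the opposite strand, *PRAL*, overlaps *XAF1*, and since the strand setting of the counting is not given in the sources used here, its reads cannot be told apart from those of *XAF1*.

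Among the 3 RNA sensors, all fitted levels were higher and none passed the test. *DDX60*, a helicase that assists RIG-I, measured 3.84, 4.87 and 3.78 CPM in shNC and 8.08, 8.59 and 2.90 CPM in shATGL (log2 fold change 0.65, SE 0.37, adjusted p = 0.514 in edgeR). *RIGI*, which detects viral RNA by its free triphosphate end, measured 3.49, 4.27 and 3.20 CPM and 6.08, 5.39 and 3.46 CPM (log2 fold change 0.45, SE 0.23, adjusted p = 0.478). *IFIH1* (MDA5), which detects long double-stranded RNA, measured 5.81, 4.87 and 4.78 CPM and 6.53, 7.60 and 4.91 CPM (log2 fold change 0.30, SE 0.18, adjusted p = 0.534). In all 3, shATGL 1 and 2 were the highest of the 6 libraries and shATGL 3 lay within or under the shNC range.

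**Figure D3:**
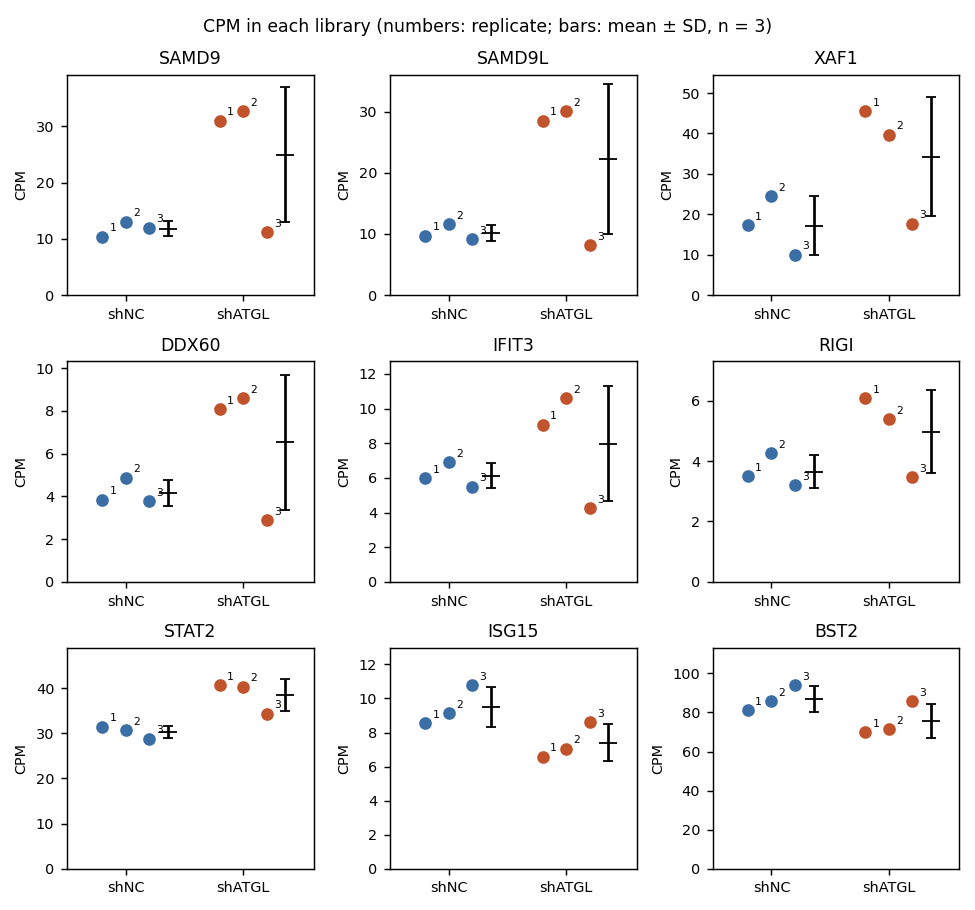
CPM of 9 genes in each library, with points numbered by replicate and bars for the mean ± SD (n = 3 per group). For SAMD9, SAMD9L, DDX60, IFIT3 and RIGI, shATGL 3 sits with the shNC libraries or below them, while STAT2 is above shNC in all 3 libraries labelled shATGL.

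Of the 4 transcription factors, *STAT2* differed without overlap. *STAT2* (ENSG00000170581, chr12:56341597-56360155, minus strand), the subunit of ISGF3 that carries its main activation domain, measured 31.4, 30.7 and 28.8 CPM in shNC and 40.7, 40.3 and 34.3 CPM in shATGL. All 3 libraries labelled shATGL were above all shNC libraries, shATGL 3 by the least, and the log2 fold change was 0.34 (SE 0.09, unadjusted p = 0.00601, adjusted p = 0.392 in edgeR; exact permutation p = 0.1, the smallest possible). *IRF1*, *IRF7* and *IRF9* had log2 fold changes between -0.02 and 0.13. The span of *IRF9* lies within that of a longer gene on the same strand which took more counts than *IRF9* itself (43.3 against 7.52 to 11.6 CPM), so reads may have been divided between them.

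*ISG15* and its pathway did not move as 1 group. *ISG15* (ENSG00000187608, chr1:1001138-1014540, plus strand), the ubiquitin-like modifier, measured 8.56, 9.12 and 10.8 CPM in shNC and 6.57, 7.04 and 8.62 CPM in shATGL. Its groups overlapped at shNC 1 and shATGL 3, and its log2 fold change was -0.36 (SE 0.15, unadjusted p = 0.0448, adjusted p = 0.417 in edgeR; exact permutation p = 0.2). *HERC5*, the ligase that attaches *ISG15* to proteins, measured 1.59, 1.68 and 1.49 CPM and 2.13, 2.68 and 1.36 CPM (log2 fold change 0.38, SE 0.26, adjusted p = 0.573). *USP18*, the protease that removes *ISG15*, and *HERC6* had log2 fold changes of -0.04 and -0.01.

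The IFIT proteins bind foreign RNA by its end, and all 4 had a positive log2 fold change, with an adjusted p of 0.510 or more. *IFIT3*, the partner that stabilizes *IFIT1*, measured 5.99, 6.92 and 5.49 CPM in shNC and 9.07, 10.6 and 4.26 CPM in shATGL (log2 fold change 0.38, SE 0.31, adjusted p = 0.629). It shared the order of *SAMD9L*, with shATGL 3 the lowest of all libraries. *IFIT1* measured 0.483, 0.639 and 0.663 CPM and 1.15, 0.509 and 0.849 CPM (log2 fold change 0.49, SE 0.36, adjusted p = 0.599). *IFIT5* measured 1.16, 0.958 and 1.04 CPM and 1.05, 1.55 and 1.70 CPM (log2 fold change 0.44, SE 0.25, adjusted p = 0.510). Of the shATGL libraries, *IFIT1* was lowest in shATGL 2 and *IFIT5* in shATGL 1. They had only 35 to 85 and 57 to 119 counts per library. Whether these neighbours in the gene cluster on chromosome 10 share 1 order of libraries therefore cannot be told. *IFIT1*, *IFIT2* and *IFIT3* overlap the annotated span of *LIPA* on the opposite strand, and IFIT paralogs can share reads.

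No enzyme that reads double-stranded RNA passed the test with all 6 libraries. *OAS1*, *OAS2*, *OAS3* and *OASL*, which make or resemble makers of the second messenger 2-5A, had log2 fold changes between -0.09 and 0.09. *EIF2AK2* (PKR, which halts translation) measured 37.4, 38.6 and 36.2 CPM in shNC and 42.8, 45.8 and 31.9 CPM in shATGL, with a log2 fold change of 0.10. *ADAR* measured 412, 416 and 404 CPM in shNC and 398, 404 and 455 CPM in shATGL. The dynamin-like GTPases *MX1* and *MX2*, which trap viral nucleocapsids, were slightly lower, and *MX1* measured 2.26, 2.23 and 1.83 CPM against 2.32, 1.40 and 1.93 CPM (log2 fold change -0.16, SE 0.23, adjusted p = 0.791).

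Of the 6 membrane and entry or release factors, 5 had a lower and 1, *RSAD2* (0.05), a higher fitted level in shATGL, and none passed the test (smallest adjusted p 0.466; 48.1% of all tested genes were lower). *BST2* measured 81.0, 85.7 and 94.0 CPM in shNC and 69.9, 71.3 and 85.8 CPM in shATGL (log2 fold change -0.20, SE 0.10, adjusted p = 0.466). *IFITM2* measured 56.3, 58.7 and 68.2 CPM and 46.9, 51.6 and 60.3 CPM (log2 fold change -0.21, SE 0.11, adjusted p = 0.505). In both, shATGL 1 and 2 were the 2 lowest libraries and shATGL 3 lay within the shNC range. *IFITM3* followed the same order at 14.8, 16.7 and 17.5 CPM against 14.4, 13.8 and 16.9 CPM. The spans of *IFITM1* and *IFITM2* overlap on the same strand, and the IFITM paralogs can share reads. Among the small induced proteins, *IFI35*, a leucine zipper protein, measured 24.8, 24.8 and 27.0 CPM in shNC and 22.2, 23.9 and 24.9 CPM in shATGL.

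*EPSTI1* was low and lower in every library labelled shATGL. It measured 0.994, 1.39 and 1.04 CPM in shNC and 0.688, 0.718 and 0.915 CPM in shATGL, for a log2 fold change of -0.56 (SE 0.26, adjusted p = 0.439 in edgeR; exact permutation p = 0.1, the smallest possible). *IFI27*, a small protein of the mitochondrial and nuclear membranes, stood at 0.290, 0.454 and 0.212 CPM in shNC and 0.418, 0.431 and 0.349 CPM in shATGL (log2 fold change 0.34, SE 0.42, adjusted p = 0.765). The other 24 tested members had log2 fold changes between -0.12 and 0.13, with an adjusted p of 0.619 or more.

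In edgeR, shATGL 3 decided whether any member was called. Leaving out each library in turn gave 0 called members in 5 of the 6 fits and 4 without shATGL 3, namely *SAMD9*, *SAMD9L*, *XAF1* and *DDX60*, all higher in shATGL (9.76% of 41 tested members, against 1.5% of 19954 tested genes called higher). Without shATGL 3 the log2 fold changes were 1.43 (SE 0.11, adjusted p = 0.000404) for *SAMD9*, 1.53 (SE 0.11, adjusted p = 0.000393) for *SAMD9L*, 1.31 (SE 0.30, adjusted p = 0.0284) for *XAF1* and 1.001 (SE 0.16, adjusted p = 0.00924) for *DDX60* in edgeR. At any fold change, 8 members were then higher at an adjusted p under 0.05, those 4 with *STAT2*, *RIGI*, *IFIT3* and *EIF2AK2* (19.5% of the members against 7.94% of all tested genes), and 1 was lower, *BST2* (2.44% against 6.07%). Of these, the log2 fold change was 0.65 for *RIGI* (adjusted p = 0.0457), 0.68 for *IFIT3* (adjusted p = 0.0244), 0.24 for *EIF2AK2* (adjusted p = 0.0448) and -0.30 for *BST2* (adjusted p = 0.0297). The same omission raised the number of called genes from 1 to 319 over all genes. Limma voom, which weights libraries by quality, called *SAMD9*, *SAMD9L* and *XAF1* with all 6 libraries (7.32% of the members against 1.26% of all tested genes called higher).

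**Figure D4:**
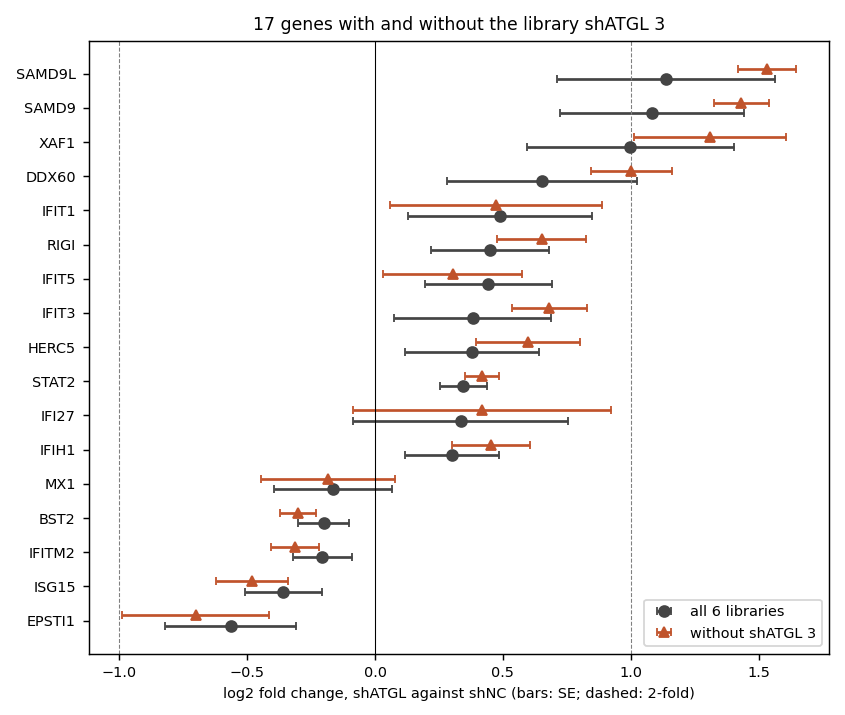
Log2 fold change of the 17 genes with the largest differences or an unadjusted p under 0.05, with SE bars, from all 6 libraries (circles) and without shATGL 3 (triangles). SAMD9L moves from 1.14 to 1.53 and DDX60 from 0.65 to 1.001, and the bars of both shorten.

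The members did not vary as a single unit over the libraries. Over 820 pairs of the 41 tested members, the median Pearson correlation of log2(CPM + 1) over the 6 libraries was 0.04, against -0.002 over all pairs of tested genes, and 4.27% of the pairs had a correlation over 0.9, against 2.27%. These points share libraries and depth, and the correlations are descriptions. A subset did move together: *SAMD9*, *DDX60*, *RIGI*, *HERC5*, *IFIT3* and *EIF2AK2* correlated with *SAMD9L* at 0.92 to 0.99, and *XAF1* at 0.895 lay just under a limit of 0.9. These 6 are 15% of the other tested members, whereas 7.82% of all tested genes correlated with *SAMD9L* at over 0.9. At the opposite end, *CMPK2* (-0.93), *MX2* (-0.92) and *BST2* (-0.90) ran against it. They are 7.5% of the other tested members, close to the 6.39% of all tested genes at under -0.9.

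In shATGL 1 and 2 alike, 13 members (31.7%) were above the shNC range, and 24.9% of all tested genes were so too. In shATGL 3, 12 of these 13 lay inside or under the shNC range, and *STAT2* was the exception. Likewise 11 members (26.8%, against 24.1% of all tested genes) were under the shNC range in both, and *EPSTI1* was the only 1 of them also under it in shATGL 3. The summed CPM of the tested members was 992 to 1034 in shNC and 1042 to 1063 in shATGL. *ADAR* gave the largest single contribution, 404 to 416 CPM in shNC and 398, 404 and 455 CPM in shATGL 1 to 3, so the sum does not show a rise shared by the members. The members' median deviation from their own mean over the libraries, in log2(CPM + 1), was -0.07, 0.04 and -0.04 in shNC 1 to 3. In shATGL 1 to 3 it was -0.03, 0.05 and 0.0009, and the groups overlapped.

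The differences ran along with base composition. The higher members were AT-rich and long, with a GC content of 36.1% for *SAMD9*, 38.5% for *SAMD9L*, 39.1% for *DDX60* and 43% for *XAF1* and transcripts of 6852, 7134, 6071 and 3623 bases, and the lower ones GC-rich and short, with 63.4% and 787 bases for *ISG15* and 57.3% and 1019 bases for *BST2*. Over the 41 members Spearman's rho of the log2 fold change was -0.58 with GC content and 0.51 with transcript length, against -0.16 and 0.22 over all tested genes. Among the members that did not follow that order were *STAT2* at 50.2% GC and *EPSTI1* at 42.3%. *IRF7* at 66.85% (log2 fold change 0.12) and *IRF9* at 55.4% (0.13) had higher fitted levels, and *IFI44* at 39.1% (-0.11, SE 0.65) a lower one.

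**Figure D5:**
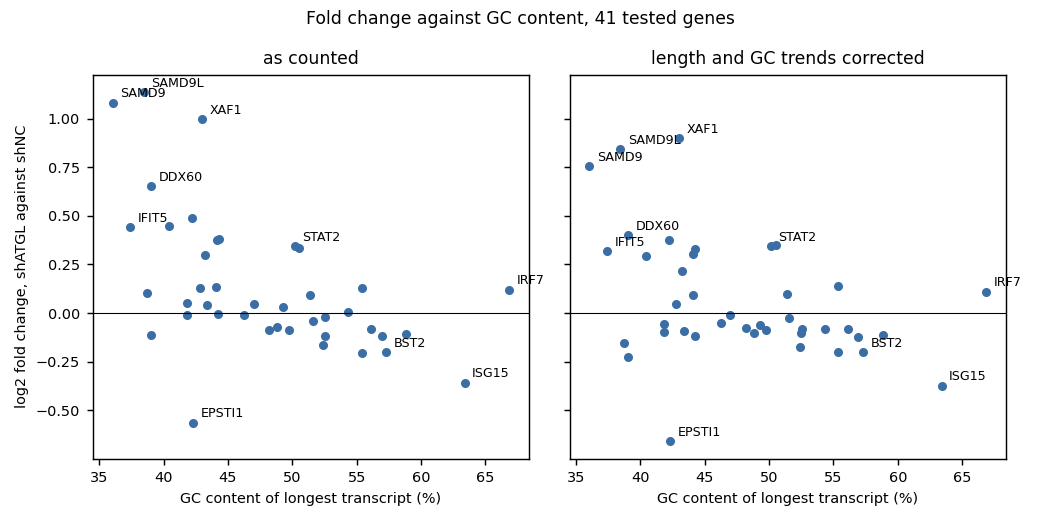
Log2 fold change (shATGL against shNC) of the 41 tested genes against the GC content of their longest transcript, as counted (left) and after each library's trends with length and GC content were corrected (right). The 4 highest genes lie under 45% GC in both panels, and SAMD9L moves from 1.14 to 0.84.

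After each library's trends with length and GC content were fitted and removed, the log2 fold changes were 0.76 for *SAMD9*, 0.84 for *SAMD9L*, 0.90 for *XAF1*, 0.40 for *DDX60*, 0.34 for *STAT2* and -0.37 for *ISG15*, and 0 members were called with all 6 libraries. With the same correction and without shATGL 3, a fit chosen after seeing the data, *SAMD9* (1.003, adjusted p = 0.00218), *SAMD9L* (1.16, adjusted p = 0.000565) and *XAF1* (1.16, adjusted p = 0.0185) were called (7.32% of the members against 0.611% of all tested genes called higher). At any fold change, 6 members were then higher at an adjusted p under 0.05 (those 3 with *DDX60*, *STAT2* and *IFIT3*, 14.6% against 5.33% of all tested genes), with *DDX60* at 0.67 (adjusted p = 0.0130). In that fit 4 members were lower (9.76% against 16.5%), namely *ISG15* (-0.51, adjusted p = 0.0236), *BST2* (-0.31, adjusted p = 0.00551), *IFITM2* (-0.31, adjusted p = 0.0191) and *ADAR* (-0.13, adjusted p = 0.0482), and *EIF2AK2* turned to -0.17 (adjusted p = 0.126). Over the members, rho with GC content was still -0.39 after the correction with all 6 libraries, while over all tested genes it was 0.0022. The part of base composition in the differences was not tested beyond this correction.

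The rest of the pathway was measured through 5 lists, and no gene of any of them was called or had an adjusted p under 0.05 with all 6 libraries. Without shATGL 3, 11 of the 101 tested genes of the lists (10.9%, against 7.94% of all tested genes) were higher and 7 (6.93%, against 6.07%) were lower at an adjusted p under 0.05. *TLR9*, described below, is counted among the 11 and the 101, although it passed the filter on low counts through the shATGL libraries alone. Interferons themselves were almost silent: of 32 ligand, receptor and signalling genes, 19 had 0 counts in every library and 10 were tested. *IFNB1* had 4 counts in shATGL 1 and 3 in shATGL 3, *IFNG* had 4 in shNC 2, 3 in shNC 3 and 4 in shATGL 1, and *IFNK* had 3 in shATGL 1, each with none elsewhere. *IFNAR1* stood at 51.3 ± 1.36 CPM in shNC and 54.4 ± 6.59 in shATGL, and *IFNAR2* at 73.4 ± 1.64 and 70.2 ± 2.88 CPM. *TYK2* was the only 1 of the 10 tested genes of this list with an unadjusted p under 0.05 in edgeR, a cut that 11.7% of all tested genes met. It measured 114, 111 and 111 CPM in shNC and 145, 139 and 129 in shATGL (log2 fold change 0.30, SE 0.06, adjusted p = 0.392). Like *STAT2* it was higher in all 3 libraries labelled shATGL, as were 7.93% of all tested genes. Genes of the other lists named below at the same cut are to be read beside the same share of 11.7%.

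Among 18 tested genes of nucleic acid sensing, *TLR9*, the endosomal receptor for unmethylated DNA, had 0 counts in every shNC library and 55, 108 and 43 counts in shATGL 1 to 3. It passed the filter on low counts through the shATGL libraries alone, so no p is given for it. *PQBP1* was lower at an unadjusted p of 0.0426. The list of 20 negative regulators and RNA or DNA clearing enzymes also held enzymes that attach *ISG15*. Of these, *UBA7*, the activating enzyme for *ISG15* and not a negative regulator, was higher (log2 fold change 0.22, unadjusted p = 0.00557 in edgeR). In the same list *TRIM27* (-0.18) and *RNASEH2A* (-0.22) were lower, and the 3 genes had an adjusted p of 0.392 to 0.396. Of 18 tested genes of interferon gamma response and antigen presentation, 12 were lower, where 48.1% of all tested genes were lower. Their median log2 fold change was -0.06, against 0.01 over all tested genes. The other lists had 6 higher and 4 lower (ligands and receptors), 10 and 8 (sensing), 10 and 10 (negative regulators) and 24 and 15 (other interferon-stimulated genes). In the interferon gamma list, *PSMB8*, an immunoproteasome subunit, had the only unadjusted p under 0.05 (-0.20, adjusted p = 0.397 in edgeR). Of 39 other tested interferon-stimulated genes, *SP100*, a nuclear body protein, was higher (28.1, 30.8 and 29.8 CPM in shNC and 47.9, 46.7 and 31.2 in shATGL, log2 fold change 0.51, SE 0.16, adjusted p = 0.392) and *LY6E* lower (-0.20, adjusted p = 0.414). For *SP100*, the 3 libraries labelled shATGL were above all shNC libraries, shATGL 3 by the least, as was the case without overlap for 7.93% of all tested genes.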

How the data were processed

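RNA from 6 MV4-11 libraries (3 shNC, 3 labelled shATGL, groups from the labels) was sequenced on a NovaSeq with paired ends after TRIzol extraction, and reads were cleaned with FASTP. The labels also name a miRNeasy kit, Geo-seq amplification and a TruePrep kit, so the library preparation is described in 2 ways. The authors deposited raw counts of reads per gene, without normalization. The submitters' processing notes name the build mm10, although the identifiers are human. The aligner, counter, strand setting and annotation are not given in the sources used here. Names and positions were taken from GENCODE 29 (GRCh38), and 58254 of 61806 identifiers had a position there.

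The counts were tested with edgeR 4.0.16 under R 4.3.3 (filterByExpr with a minimum count of 10 and a minimum total of 15, TMM, quasi-likelihood test, Benjamini-Hochberg adjustment over 19149 genes). Calls needed a change of 2-fold or more with an adjusted p under 0.05. limma 3.58.1, DESeq2 1.42.0, other normalizations and filters, a replicate block, leaving out each library and a correction of length and GC trends (natural splines with 4 degrees of freedom) were alternatives. CPM used TMM library sizes, and correlations used log2(CPM + 1). Single members were tested by exact two-sided permutation over 20 relabellings. The members, the lists and the rule for named genes were chosen with earlier results of these data known. Named genes are the members with an unadjusted p under 0.05 and the 12 other tested members with the largest absolute log2 fold change (17 in all, to which the fold changes recomputed in the closing section refer), with levels by library also for the 5 highest per length. *EIF2AK2* and the genes of the 5 lists with an unadjusted p under 0.05 were named after their values were seen, as were the receptors.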

Additional observations from a re-analysis of the deposited data

How the results depend on the processing

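The count of called members was 0 with DESeq2, with its size factors in edgeR, with upper-quartile scaling, without a filter, with a minimum of 10 counts per library, with the replicate block, with the length and GC correction, and at any fold change at an adjusted p under 0.05. It was 3 with limma voom, 0 to 4 when 1 library was left out, and 3 with the length and GC correction and shATGL 3 left out. Members at an unadjusted p under 0.05 numbered 15 with voom (36.6% of those tested, against 30.6% of all tested genes), 1 to 15 with 1 library left out (36.6% against 28.8% at the highest, without shATGL 3) and 18 with the correction and shATGL 3 left out (43.9% against 33.2%). The median log2 fold change was 0.12 with voom, -0.055 with the correction (-0.059 over all genes there), -0.0092 to 0.14 with 1 library left out and -0.092 with the correction and shATGL 3 left out (-0.094 over all genes there). The median correlation between members ran from -0.0020 to 0.072 with 1 library left out. Members with at least 1 CPM in every library were 79.1% of 43.

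With the replicate block, 7 members had an unadjusted p under 0.05 in place of 5 (17.1% against 17.3% of all tested genes). Same-numbered libraries deviated together at correlations of -0.0318, 0.0941 and 0.172, and differently numbered ones at -0.174 to 0.0947. The pair of shNC 3 and shATGL 3 had the highest value. Whether same-numbered libraries share a culture or a batch cannot be decided from these values, and the labels give only the number. Of 255 recomputed fold changes of the 17 named members, 231 kept their direction and stayed above an adjusted p of 0.05, 22 kept it and passed, and 2 turned: *MX1* to 0.011 without shATGL 2 (-0.35 to 0.011 with 1 library left out), and *IFIT5* to -0.022 with the correction and shATGL 3 left out. In the fit in which *IFIT5* turned, the median over all tested genes was -0.094. Of the 24 other tested members, 16 changed sign in at least 1 alternative. Counting depth limits the members under 1 CPM most.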
